A study of Mus musculus with 10 samples.

Results

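The acute-phase genes described here are 9: the fibrinogen chain genes Fga, Fgb and Fgg, the orosomucoid genes Orm1 and Orm2, the serum amyloid A gene Saa3, the leucine-rich glycoprotein gene Lrg1, the serpin gene Serpina3n and the haptoglobin gene Hp. They are 9 of the 56748 gene identifiers in the count tables, taken by symbol from a list of liver-type acute-phase genes that was drawn up with the difference between LPS and untreated libraries in view. That difference is therefore given for these genes as a description, without a p-value. The data are RNA-seq counts of beta cells obtained by flow sorting from islets of male NOD mice 6 to 8 weeks old, an inbred strain that develops autoimmune diabetes. All libraries share this strain, sex and sort. Islets were left untreated (5 libraries, untreated 1 to 5) or were held with lipopolysaccharide (LPS), a bacterial cell wall component, at 50 ng/ml for 48 hours (5 libraries, LPS 6 to 10), and only then dispersed and sorted. The LPS therefore reached whole islets, with all the cell types they hold. Whether untreated islets were cultured equally long is not stated in the sources used here. The design text calls the samples independent without naming the animals behind each, so p-values measure the spread between these libraries, and that spread may be partly technical.

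Acute-phase proteins are plasma proteins whose output changes during inflammation. The main source is the hepatocyte, where IL-6-type cytokines act through STAT3 and IL-1-type cytokines through NF-kB and C/EBP factors. Fibrinogen is a hexamer with paired alpha, beta and gamma chains that thrombin turns into fibrin. Orosomucoids carry small lipophilic molecules in plasma, serum amyloid A proteins associate with lipoproteins, haptoglobin binds free haemoglobin, LRG1 is a secreted glycoprotein linked to TGF-beta signalling in endothelium, and SERPINA3N inhibits serine proteases. Several of these genes are also transcribed in inflamed epithelia, fat or myeloid cells.

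The promoters of the fibrinogen chain genes are shown because the 3 genes lie next to each other on chromosome 3 and differed between the groups together, and that of Lrg1 because it holds the same short element. Each run is the 250 bases before the transcription start in RefSeq (build GRCm38.p6, not the build of the count tables), read 5′ to 3′ on the gene's strand. Capitals mark CTGGGA, the core of the IL-6 response element described in fibrinogen promoters.
Fga, chr3:83025903-83026152, plus strand: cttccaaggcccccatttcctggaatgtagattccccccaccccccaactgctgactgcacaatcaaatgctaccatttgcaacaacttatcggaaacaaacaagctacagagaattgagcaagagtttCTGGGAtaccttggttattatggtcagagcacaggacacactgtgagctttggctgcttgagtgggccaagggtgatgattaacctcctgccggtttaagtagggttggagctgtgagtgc
Fgb, chr3:83049864-83050113, minus strand: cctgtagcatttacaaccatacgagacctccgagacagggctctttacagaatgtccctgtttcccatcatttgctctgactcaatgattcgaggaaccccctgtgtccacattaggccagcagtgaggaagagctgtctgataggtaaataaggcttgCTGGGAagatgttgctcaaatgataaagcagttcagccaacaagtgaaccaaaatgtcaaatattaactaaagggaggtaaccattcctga
Fgg, chr3:83007474-83007723, plus strand: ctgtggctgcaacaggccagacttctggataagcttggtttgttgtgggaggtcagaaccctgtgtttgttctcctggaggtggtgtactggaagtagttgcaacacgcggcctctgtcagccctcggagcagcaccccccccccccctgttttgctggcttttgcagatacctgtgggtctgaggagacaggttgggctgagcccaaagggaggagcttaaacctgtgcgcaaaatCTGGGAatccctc
Lrg1, chr17:56121947-56122196, minus strand: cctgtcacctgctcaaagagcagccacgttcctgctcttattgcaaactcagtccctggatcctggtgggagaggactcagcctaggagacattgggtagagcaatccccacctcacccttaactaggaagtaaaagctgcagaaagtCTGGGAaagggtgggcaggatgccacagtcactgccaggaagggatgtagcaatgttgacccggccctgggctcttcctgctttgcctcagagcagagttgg

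The match lay 121 to 116 bases before the listed start in Fga, 91 to 86 in Fgb, 13 to 8 in Fgg and 102 to 97 in Lrg1. It was searched on both strands. Of the 7 members with a RefSeq promoter entry (all but Orm1 and Hp) these 4 had a match, and 27.0% of the 32851 promoter windows of that length had one as well. The C/EBP-type motif TTGCNNAA was in 4 of the 7 windows (Fga, Fgb, Orm2 and Saa3) and in 9.56% of all windows. In Fga and Fgb it stood close to the capitals without overlapping them, 135 to 128 and 80 to 73 bases before the start. The STAT motif TTCNNNGAA was in Fga and Fgb (7.02% of all windows), and an NF-kB-type motif was in Serpina3n (17.6%). A match describes letters in the window and is no evidence of binding.

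Counts assigned to genes came to 18465188 to 27379892 per library, and 15942 genes had enough counts for edgeR's quasi-likelihood test, of which 453 were called higher and 148 lower with LPS (Benjamini-Hochberg adjusted p under 0.05). Levels are given as CPM, counts scaled to library totals with TMM factors. Untreated 5 was low for acute-phase genes, members or not: it was the lowest untreated library for 5 of the 6 members that could be tested, for 8 of the 12 other positive acute-phase genes called higher, and for 27.5% of all tested genes (14.4% to 23.3% for the other untreated libraries). The fold changes of the tested members and the correlations among them are therefore also given without it. Of the called genes of the other lists, Fetub, Cntfr, Il1rn and Cebpa were not called without it. Beta cell markers were abundant, with a summed level of 118120 to 136910 CPM over 10 genes in untreated and 101850 to 133890 in LPS libraries. Alpha cell markers (6 genes) summed to 6596 to 15834 and 5290 to 10511 CPM.

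In the LPS libraries all 3 fibrinogen chain transcripts were higher than in every untreated library, about 3.75-fold for Fgb, 5.62-fold for Fgg and 12.8-fold for Fga. Of the 9 members, 6 passed the filter on low counts (Fga, Fgb, Fgg, Orm1, Lrg1 and Serpina3n) and all 6 were called higher, against 2.84% of all genes tested. For each of these 6 the groups did not overlap, which held with LPS higher for 3.84% of all genes tested (5.71% in either direction). DESeq2 and limma-voom also called all 6 higher, beside 4.1% and 2.77% of all genes tested. Since the genes were chosen on this contrast and a low gene passes the filter through the group where it is high, nothing is read from these counts. With the mean level of beta cell markers as a covariate, which separates the groups by itself, 1 of the 6 (Lrg1) was called. Orm2, Saa3 and Hp had too few counts. In a fit of all 32031 genes with any count, 8 members were called higher, all but Hp, beside 1.5% of those genes.

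**Figure D1:**
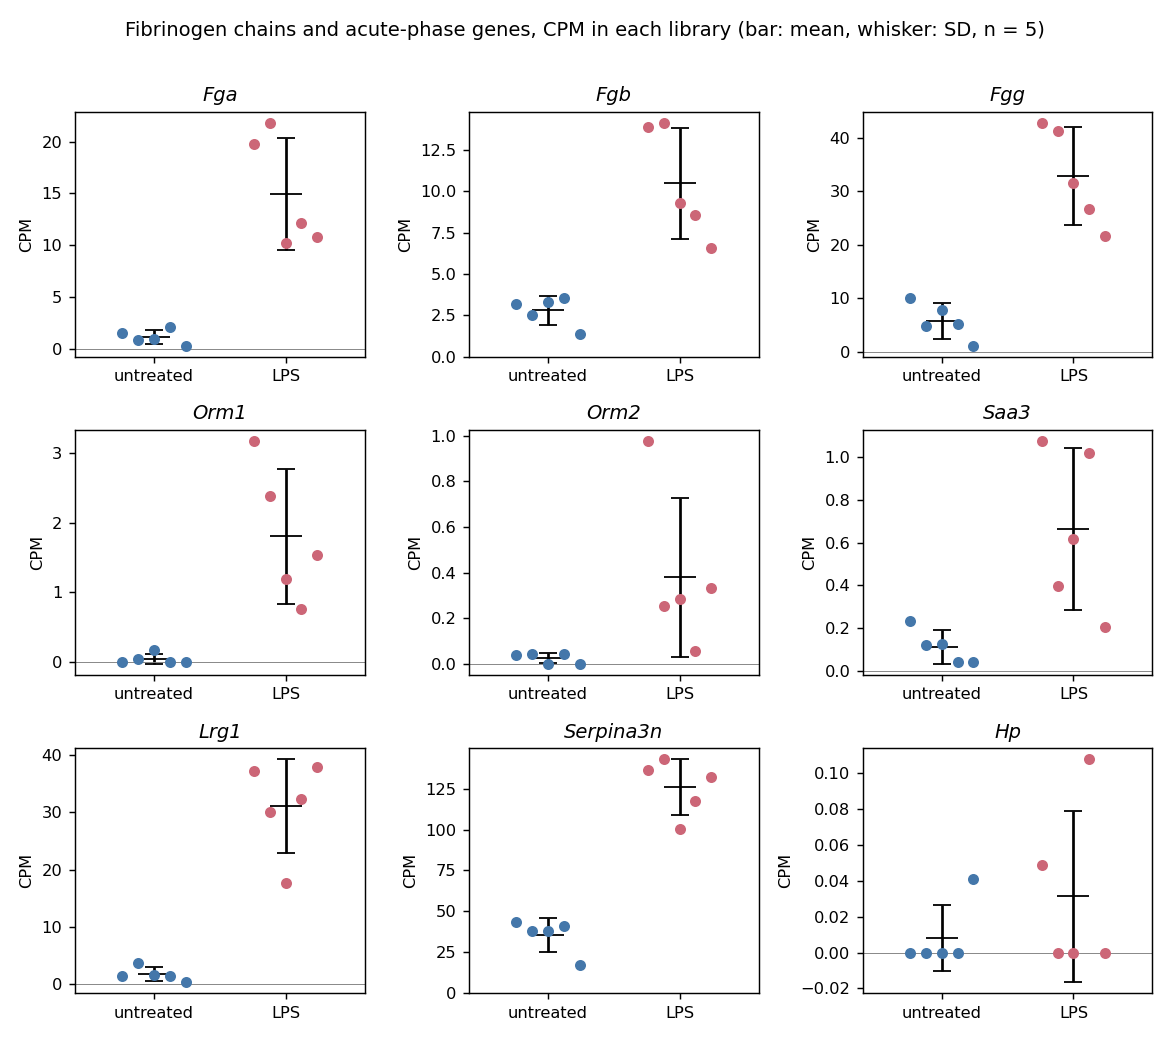
CPM of the 9 genes in each library (points, 5 untreated and 5 LPS, in label order from left to right), with the mean and SD of each group; each panel has its own linear axis. LPS points lie above all untreated points for 7 genes, including Orm2, and overlap for Saa3 and Hp.

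Fga (ENSMUSG00000028001), the gene of the fibrinogen alpha chain, stood at 1.51, 0.891, 0.928, 2.15 and 0.328 CPM in untreated 1 to 5 and at 19.7, 21.7, 10.2, 12.1 and 10.8 CPM in LPS 6 to 10. LPS 6 and 7 were highest and the lowest LPS library was still above the highest untreated one. The group means were 1.16 ± 0.693 and 14.9 ± 5.40 CPM (mean ± SD of 5 libraries), which is 3.68 ± 0.36 (SE) as a log2 fold change. Without untreated 5 this was 3.45.

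Fgb (ENSMUSG00000033831), which encodes the beta chain, stood at 3.18, 2.55, 3.33, 3.53 and 1.39 CPM in untreated 1 to 5 and at 13.8, 14.1, 9.30, 8.59 and 6.54 CPM in LPS 6 to 10. The same LPS libraries were highest as for Fga, and the groups did not overlap. The means were 2.80 ± 0.865 and 10.5 ± 3.36 CPM, a log2 fold change of 1.91 ± 0.26 (SE), or 1.74 without untreated 5.

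Fgg (ENSMUSG00000033860), the gamma chain gene, was the most abundant of the chains, with 10.1, 4.86, 7.81, 5.20 and 1.15 CPM in untreated 1 to 5 and 42.7, 41.3, 31.6, 26.7 and 21.6 CPM in LPS 6 to 10. Untreated 1 and untreated 5 differed widely, yet the groups stayed apart. Means were 5.82 ± 3.37 and 32.8 ± 9.11 CPM and the log2 fold change was 2.49 ± 0.37 (SE), or 2.23 without untreated 5. In the GENCODE M21 annotation, 115 exonic bases of Fgg are shared with a non-coding gene on the opposite strand, Gm30097; whether counting used strand is not given in the sources used here.

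The balance of the chains also differed between the groups. The count of Fga relative to that of Fgb was 0.476, 0.349, 0.279, 0.610 and 0.235 in untreated 1 to 5 and 1.43, 1.54, 1.10, 1.41 and 1.66 in LPS 6 to 10, with no overlap. Per kilobase of exon, Fga made up 10.3 ± 4.23% of the 3 chains in untreated and 21.1 ± 2.90% with LPS (SD over 5 libraries), with overlap between untreated 4 (17.3%) and LPS 8 (16.2%). The share of Fgb went the other way, 22.0 ± 8.38% and 11.7 ± 0.434%, without overlap. Fgg remained the largest, 67.7 ± 10.5% and 67.2 ± 2.91%. The shares varied less among the LPS libraries than among the untreated ones, where counts of Fga were as low as 8 in untreated 5.

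**Figure D2:**
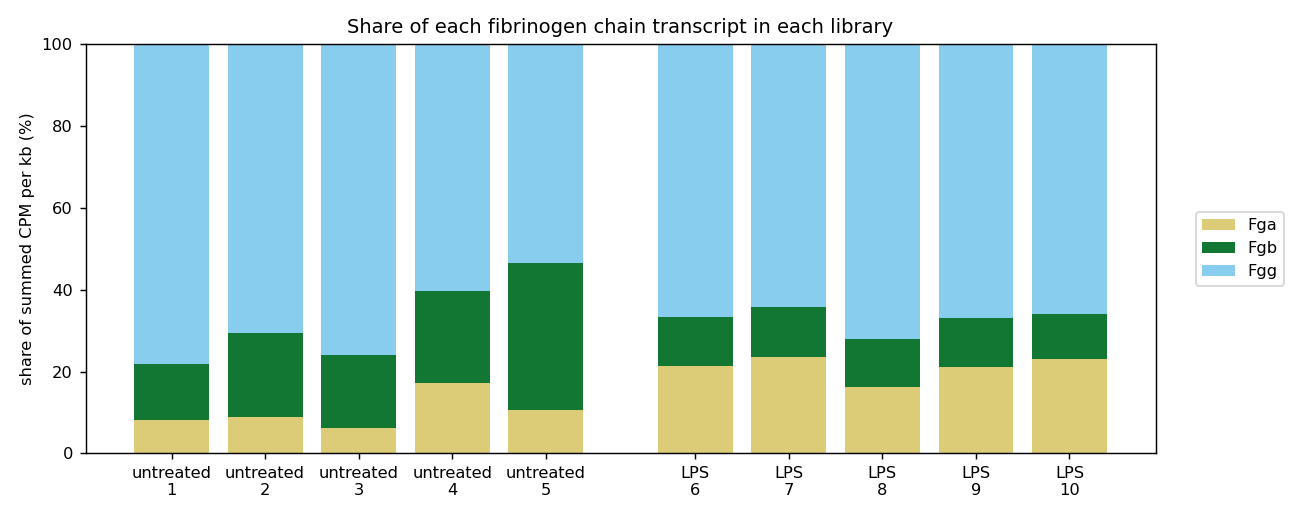
Share of each fibrinogen chain transcript in the summed CPM per kilobase of exon, one stacked bar per library. Fgg is the largest share in each library, and the Fgb share is 10.96% to 12.09% in LPS and 13.6% to 35.8% in untreated libraries.

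The orosomucoid genes were near 0 without LPS. Orm1 (ENSMUSG00000039196) had 0, 1, 4, 0 and 0 counts in untreated 1 to 5 and 65, 66, 25, 14 and 37 counts in LPS 6 to 10. Over the groups this was 5 against 207 counts, a depth-corrected ratio of 45.0 with a 95% interval of 19.0 to 140.0 (exact conditional binomial, counting error only). In the fit across genes the log2 fold change was 5.29 ± 0.68 (SE), or 5.00 without untreated 5. Its size turned on untreated 3, which held 4 of the 5 untreated counts: it was 6.87 without that library and 4.98 to 5.48 with any other library left out. Orm2 (ENSMUSG00000061540) had 3 untreated counts in all and 20, 7, 6, 1 and 8 counts in LPS 6 to 10, a ratio of 15.2 (4.86 to 76.7). LPS 6 held 20 of the 42 LPS counts: the log2 ratio of mean CPM was 3.96 with it and 3.23 without it. The groups did not overlap in CPM, but LPS 9 rested on 1 count. Orm1 and Orm2 are copies of one another: 20.4% of the 50-base stretches of the Orm1 transcript recur in Orm2, so the split of reads between them is uncertain. The further copy Orm3 had 0 untreated and 2 LPS counts.

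Saa3 and Hp were also represented by few counts. Saa3 (ENSMUSG00000040026), a serum amyloid A gene expressed mainly outside the liver, had 6, 3, 3, 1 and 1 counts in untreated 1 to 5 and 22, 11, 13, 19 and 5 counts in LPS 6 to 10. LPS 10 lay below untreated 1, so the groups overlapped, and the ratio was 5.43 (95% interval 3.03 to 10.4, counting error only). Of the 50-base stretches of the Saa3 transcript, 3.91% recur in other genes (244 genes, among them Malat1), but no 100-base stretch does. Hp (ENSMUSG00000031722) had 1 count in untreated and 3 counts in LPS libraries, a ratio of 3.26 whose interval of 0.262 to 171 allows either direction. A difference in Hp was not detectable at this depth. The liver-type copies Saa1 and Saa2 had 5 and 0 counts over all libraries.

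Lrg1 (ENSMUSG00000037095) had the second largest log2 fold change of the members tested, after Orm1. Its levels were 1.40, 3.69, 1.48, 1.46 and 0.369 CPM in untreated 1 to 5 and 37.3, 30.0, 17.7, 32.4 and 37.9 CPM in LPS 6 to 10. Untreated 2 was the highest untreated library and LPS 8 the lowest LPS library, and the groups were far apart. The means were 1.68 ± 1.22 and 31.1 ± 8.19 CPM (SD over 5 libraries), which is 4.20 ± 0.37 (SE) as a log2 fold change, or 3.95 without untreated 5. No 50-base stretch of the Lrg1 transcript recurs in another gene of the annotation, nor does one of the fibrinogen chains or of Hp.

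Serpina3n (ENSMUSG00000021091), the mouse counterpart of alpha-1-antichymotrypsin, was the most abundant member in both groups. It stood at 43.4, 38.1, 37.6, 41.2 and 17.0 CPM in untreated 1 to 5 and at 136, 143, 100.1, 118 and 132 CPM in LPS 6 to 10. Untreated 5 was far below the other untreated libraries. The means were 35.5 ± 10.6 and 126 ± 17.2 CPM, a log2 fold change of 1.83 ± 0.20 (SE), the smallest of the 6, or 1.65 without untreated 5. Its coefficient of variation among the LPS libraries was 13.7%, against 26.4% to 53.8% for the other 5 tested members.

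Serpina3n belongs to a cluster of gene copies on chromosome 12, and 2 of the other copies could be tested. Serpina3i rose from 2.33 ± 0.691 to 8.12 ± 1.24 CPM (SD over 5 libraries; 1.80 ± 0.21 on the log2 scale with its SE, adjusted p in edgeR 2.1e-04) and Serpina3h from 0.833 ± 0.482 to 6.87 ± 1.16 CPM (3.05 ± 0.29, adjusted p in edgeR 4.81e-05). Both had separate groups. Serpina3f (3 and 39 counts) and Serpina3m (16 and 54 counts) were too low to be tested. Of the cluster's counts over 11 copies, 90.9% in untreated and 88.7% in LPS libraries were assigned to Serpina3n. Since 6.90% of the 50-base stretches of Serpina3n recur in other genes, some reads of its copies may be assigned to the wrong one.

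**Figure D3:**
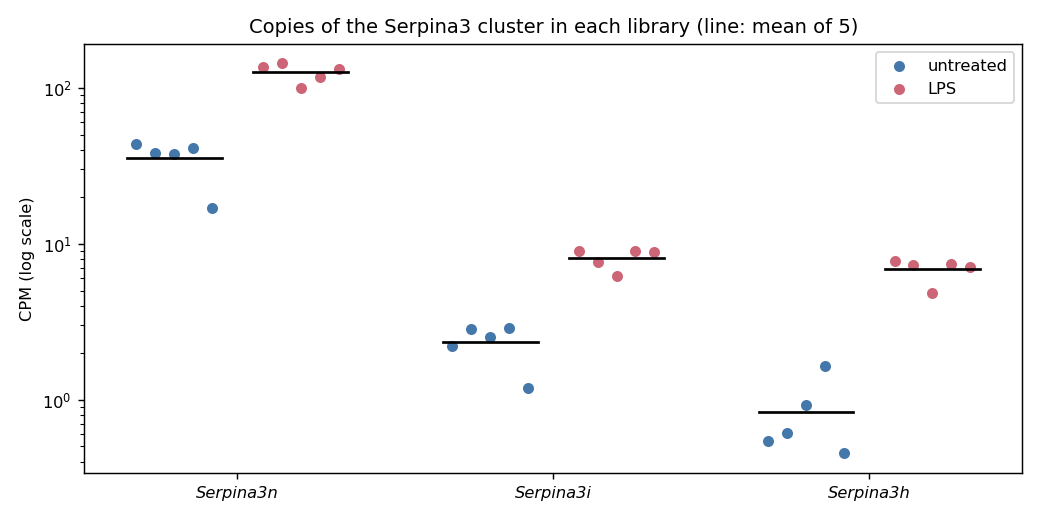
CPM on a log axis of Serpina3n, Serpina3i and Serpina3h in each library (points) with group means (lines). The LPS points are above the untreated points for each copy, and untreated 5 is the lowest untreated library in each.

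Compared per kilobase of exon, the order of mean levels in LPS libraries was Serpina3n (61.0 ± 8.36 CPM per kb, SD, n = 5), Lrg1 (22.1 ± 5.82), Fgg (15.7 ± 4.35), Fga (4.96 ± 1.79), Fgb (2.75 ± 0.882), Orm1 (2.33 ± 1.25), Orm2 (0.490), Saa3 (0.254) and Hp (0.0194). The ranges of neighbours over the libraries overlapped, apart from Serpina3n above Lrg1, Fgg above Fga and Saa3 above Hp, and Hp rested on 3 counts. Compared within the same library, Fga was also above Fgb and Orm1 above Orm2 in each LPS library. In untreated libraries Serpina3n was again first (17.2 ± 5.13 CPM per kb), followed by Fgg (2.78 ± 1.61), Lrg1 (1.19 ± 0.863), Fgb (0.734 ± 0.227) and Fga (0.386 ± 0.230). The remaining 4 were under 0.06 CPM per kb. Exon lengths came from GENCODE M21 on GRCm38, another build than that of the counts.

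Other positive acute-phase genes were called higher in part. Of 45 listed, 21 had enough counts and 12 of these were called higher and none lower in edgeR (2.84% and 0.928% of all genes tested), with a median log2 fold change of 1.34, while the median over all genes tested was -0.01. Like the lists of regulators, negative genes and clotting genes below, this list was chosen with earlier results of these data known. A low gene also passes the filter through the group where it is high. The counts and adjusted p-values of these lists are therefore descriptions. The ferrireductase gene Steap4 rose from 1.498 ± 0.888 to 31.5 ± 10.3 CPM (SD over 5 libraries; 4.39 on the log2 scale, adjusted p in edgeR 1.17e-05). The complement gene C3 rose from 6.84 ± 2.51 to 54.8 ± 18.2 CPM (3.00, edgeR adjusted p = 3.16e-05) and the siderophore-binding lipocalin gene Lcn2 from 51.0 ± 23.9 to 792 ± 283 CPM (3.96, edgeR adjusted p = 4.11e-05). The fourth by adjusted p was Serpina3h, given above. Not all classical liver genes were called: Hpx, the hemopexin gene, stood at 1.53 ± 0.769 and 1.81 ± 0.697 CPM (edgeR adjusted p = 0.828), and Crp had 41 untreated and 34 LPS counts, too few to test. These last examples were picked after their values were seen. Of the 24 genes not tested, 7 had no count in any library.

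**Figure D4:**
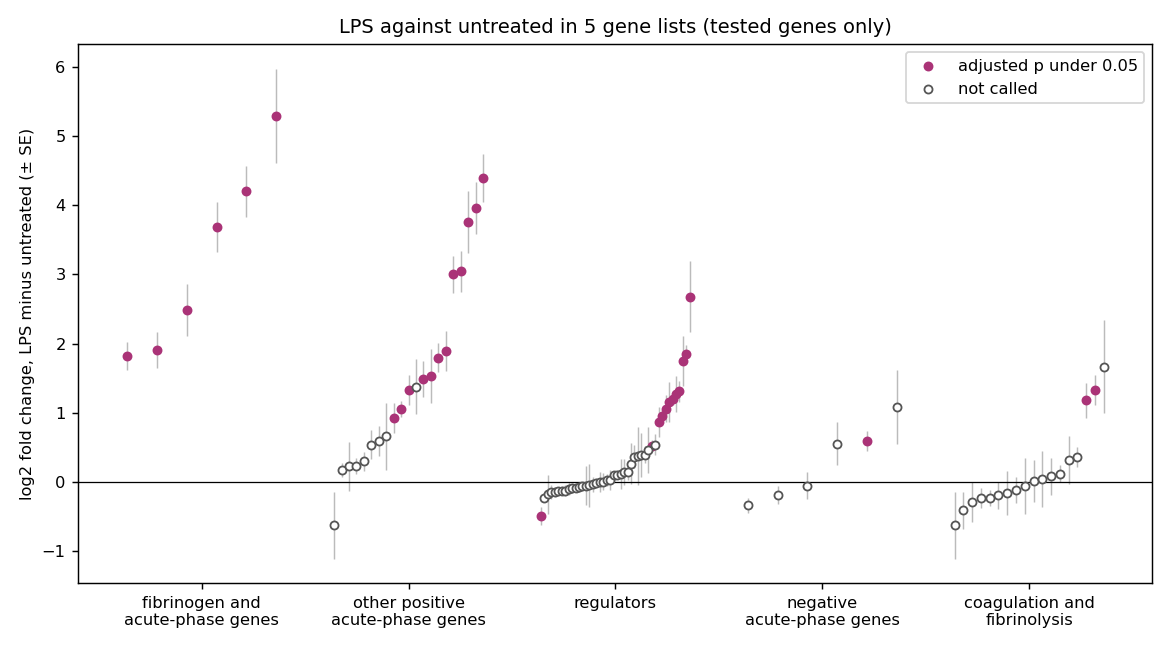
Log2 fold change (LPS minus untreated, with SE) of each tested gene in 5 lists; filled points passed an adjusted p of 0.05 in edgeR. The 6 acute-phase genes chosen on this contrast lie between 1.83 and 5.29, and most regulators lie near 0.

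Among 49 regulators of acute-phase transcription (cytokines, receptors, JAK-STAT, C/EBP, NF-kB and hepatic factors), 44 were tested, and 11 were called higher and 1 lower (2.84% and 0.928% of all genes tested), with a median log2 fold change of 0.11. The NF-kB arm held the smallest adjusted p: Nfkbia, which encodes an NF-kB inhibitor, rose by 1.85, the co-activator gene Bcl3 by 1.20 and Nfkbiz, which encodes the nuclear cofactor I-kappa-B-zeta, by 0.96 (log2 units; adjusted p in edgeR 3.68e-06, 5.41e-06 and 4.63e-05). Of the NF-kB subunit genes, Nfkb2 and Relb were called higher (1.06 and 1.28, adjusted p in edgeR 0.00729 and 0.0128). Rela and Nfkb1 were not called (0.54 and 0.37, adjusted p in edgeR 0.0732 and 0.305). Cebpd, which encodes a C/EBP factor, rose from 25.9 ± 5.48 to 64.4 ± 11.3 CPM (1.31 ± 0.15 on the log2 scale, edgeR adjusted p = 1.75e-04). The genes of the IL-6 family and its signalling differed in their calls, and are named here after their values were seen. Lif, which encodes a cytokine of that family, rose from 6.19 ± 2.36 to 20.9 ± 13.8 CPM (1.75 on the log2 scale, edgeR adjusted p = 0.0148), a call lost without untreated 3 (1.65). Cntfr, a receptor gene for another cytokine of the family, was the 1 regulator called lower, from 162 ± 26.9 to 116 ± 18.4 CPM (edgeR adjusted p = 0.0489), and was not called in 6 of the 10 fits with a library left out. Stat3 stood at 611 ± 92.3 and 677 ± 95.3 CPM (edgeR adjusted p = 0.607) and its feedback inhibitor gene Socs3 at 92.7 ± 32.6 and 100.4 ± 21.9 CPM (adjusted p = 0.867). The receptor genes Il6ra and Il6st stood at -0.14 and 0.01 on the log2 scale (adjusted p in edgeR 0.420 and 0.983), and Il6 itself had 8 untreated and 4 LPS counts. The hepatic factor gene Hnf4a (37.0 ± 1.48 and 35.0 ± 3.46 CPM) was present in both groups and did not pass (edgeR adjusted p = 0.686). Hnf4a and the NF-kB subunit genes are exceptions to the rule for named genes.

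Of 14 listed genes of negative acute-phase proteins, whose liver output drops in inflammation, 6 were tested. The count called lower was 0 in edgeR, DESeq2 and limma-voom, with 1 lower at an unadjusted p under 0.05 in edgeR. That gene was Ttr, the transthyretin gene, at 128 ± 19.4 CPM in untreated and 102 ± 13.3 CPM in LPS libraries. Its log2 fold change was -0.33 (edgeR unadjusted p = 0.00844, adjusted 0.129). Since 0.928% of all genes tested were called lower, a count of 0 among 6 does not set these genes apart. Fetub, the fetuin-B gene, was called higher, from 3.34 ± 0.458 to 5.04 ± 0.589 CPM (SD over 5 libraries; 0.59 on the log2 scale, adjusted p in edgeR 0.0365), but in 7 of the 10 fits with a library left out it was not. Alb, which encodes serum albumin, stood at 0.681 ± 0.193 and 1.01 ± 0.401 CPM (edgeR adjusted p = 0.447). Alb and Ttr are exceptions to the rule for named genes.

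Of 26 listed genes of clotting, fibrinolysis or fibrinogen-like proteins, 18 were tested, 2 were called higher and none lower. The 18 had a median log2 fold change of -0.02, and 3.77% of all genes tested were called in either direction. Fgl1, a fibrinogen-like gene that also stands in the acute-phase list, rose from 1.29 ± 0.348 to 3.26 ± 0.440 CPM (log2 fold change 1.34, edgeR adjusted p = 0.00295). Plaur, the urokinase receptor gene, rose from 1.70 ± 0.455 to 3.85 ± 1.14 CPM (1.18, edgeR adjusted p = 0.0180), with overlapping groups, and was not called in 3 of the 10 leave-one-out fits.

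Markers of 11 cell types were compared between the groups. Hepatocyte, neutrophil and macrophage markers are given here, with the lists whose summed level had an exact permutation p under 0.05. Of 12 hepatocyte markers 6 had fewer than 10 counts over all libraries, among them Serpina1c and Cyp2e1 with none; the summed level, 62.8 to 72.2 CPM in untreated and 62.4 to 77.2 in LPS libraries, came nearly all from Tat. Of 12 neutrophil markers 7 had no count (Mpo, Elane, Camp, Retnlg, Csf3r, Cxcr2 and Mmp8), with sums of 0.205 to 1.25 and 0.268 to 1.49 CPM. Of 12 macrophage markers 7 had fewer than 10 counts in all, among them Ptprc with none, and the sums of 29.1 to 42.0 and 36.4 to 46.9 CPM came mostly from Cd68 and C1qa. Cd68 was higher (log2 fold change 0.68, edgeR adjusted p = 0.0141) and C1qa was not called (-0.35). Endothelial markers summed to 11.96 to 37.96 CPM in untreated and 10.04 to 14.7 CPM in LPS libraries (two-sided exact permutation p = 0.0397). Of these markers Kdr was called lower (log2 fold change -3.12, edgeR adjusted p = 0.0473), with 0.0777 to 6.79 CPM in untreated libraries. Flt1, Emcn and Plvap had log2 fold changes of -2.83, -2.48 and -2.29 but were not called, and Esam stood at -0.27. Ductal markers summed to 1249 to 1593 and 1521 to 2141 CPM (exact permutation p = 0.0397). Their sum came mostly from Krt8, Krt7 and Krt18, which were not called. Spp1 was called higher (0.97, edgeR adjusted p = 0.00404) and Sox9 was not (0.008). The 2 markers of pancreatic polypeptide cells, Ppy and Pyy, summed to 1581 to 2984 and 953 to 2150 CPM (exact permutation p = 0.0159), and Ppy was called lower (log2 fold change -0.99, edgeR adjusted p = 0.0473). Over the 11 marker lists compared, the adjusted p of the summed level was 0.146 for each of these 3 lists. In these bulk samples, more cells of a type and more RNA per cell cannot be told apart.

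The mean level of beta cell markers ran opposite to the levels of the fibrinogen genes, a relation that passed adjustment for Fgb alone. The mean log2 CPM of the 10 markers was lower in each LPS library than in each untreated one. Relative to the mean of all libraries it was -0.211 to -0.0631 against 0.0759 to 0.238. Of its genes 3 were called lower with LPS: Slc2a2, Ucn3 and Slc30a8 (log2 fold changes -0.86, -0.64 and -0.59). The other markers were not called and overlapped between the groups: Mafa (-0.23), Ins2 (-0.19), Pdx1 (-0.19), Nkx6-1 (-0.16), Ins1 (-0.10), Iapp (0.06) and G6pc2 (0.04). The summed CPM of the 10 markers, in which each gene counts by its abundance, also overlapped (two-sided exact permutation p = 0.127, adjusted over 11 lists 0.248). Within groups, libraries with lower marker means had higher fibrinogen levels: the group-centred Pearson r over 10 libraries was -0.94 for Fgb (exact permutation p = 6.25e-04, adjusted over 60 relations 0.0375; Spearman's rho -0.81, p = 0.00604, adjusted 0.175; r -0.86 without untreated 5 and LPS 10). It was -0.86 for Fga (exact p = 0.00312, adjusted 0.0624; rho -0.82, p = 0.00875, adjusted 0.175; r -0.79 without the same libraries). It was -0.82 for Fgg (exact p = 0.00181, adjusted 0.0543; rho -0.88, p = 0.00292, adjusted 0.175; r -0.67 without them). For Lrg1 it was -0.21 (exact p = 0.655, adjusted 0.928; rho 0.05, p = 0.902; r 0.36 without them). For Serpina3n it was -0.65 (exact p = 0.0396, adjusted 0.311; rho -0.71, p = 0.0210, adjusted 0.315; r -0.52 without them). No test compared these relations with each other.

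The same 60 relations held others of similar size that did not pass adjustment. Lrg1 had r 0.75 with the mean of the 2 tested macrophage markers, Cd68 and C1qa (exact p = 0.00792, adjusted 0.0950; rho 0.50, p = 0.192; r 0.79 without untreated 5 and untreated 3). Fgg had r 0.74 with the alpha cell markers (exact p = 0.00757, adjusted 0.0950; rho 0.58, p = 0.0949; r 0.40 without LPS 10 and untreated 5).

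With the beta cell marker mean as a covariate in edgeR, a setting chosen after the relation was seen, 1 of the 6 tested members was called higher, Lrg1 at a log2 fold change of 4.37 ± 0.86 (SE), beside 4.80% of all genes tested. The values for the others were 1.25 ± 0.53 for Fga, 2.98 ± 1.42 for Orm1, 0.85 ± 0.41 for Serpina3n, -0.17 ± 0.35 for Fgb and -0.095 ± 0.57 for Fgg. Since the marker mean does not overlap between the groups, LPS and the beta cell marker level cannot be told apart in that fit. Non-member calls went with it: the counts called higher were 4 in place of 12 for the other positive genes and 4 in place of 11 for the regulators, and Steap4, Lcn2, Nfkbia, Bcl3 and Cebpd were still called. Serpina3h, Serpina3i, C3, Nfkbiz and Fgl1 were not called, with log2 fold changes of 2.20, 1.42, 1.55, 0.52 and 0.74 in place of 3.05, 1.80, 3.00, 0.96 and 1.34. With the mean of the macrophage markers or of the endothelial markers as a covariate, all 6 were called higher, beside 1.66% and 1.02% of all genes tested, with log2 fold changes from 1.64 for Serpina3n to 6.10 for Orm1. Only 2 macrophage markers had enough counts to be tested, Cd68 and C1qa, with log2 fold changes of 0.68 and -0.35. A contribution of macrophages was therefore not tested by that fit.

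Covariation among the 6 tested members was computed after removal of the group means. The set of 6 still depends on the contrast, since Orm1 passed the filter on low counts only through the LPS group, and Fga and Lrg1 had 8 and 9 counts in untreated 5. Of 15 pairs, 3 passed an adjusted p of 0.05 (exact permutation within groups, two-sided): Fga with Fgb (Pearson r 0.89, exact p = 0.00299, adjusted 0.0150; Spearman's rho 0.88, p = 0.00306, adjusted 0.0229), Fgb with Fgg (r 0.87, exact p = 0.00250, adjusted 0.0150; rho 0.79, p = 0.00819, adjusted 0.0410), and Fga with Serpina3n (r 0.87, exact p = 0.00194, adjusted 0.0150; rho 0.90, p = 0.00146, adjusted 0.0219). Without the 2 libraries farthest from the median, r was 0.81, 0.60 and 0.72. Without untreated 5, r was 0.76, 0.74 and 0.71 and no pair passed the adjusted threshold (adjusted p = 0.148 for each of the 3). Fga with Fgg had r 0.78 (exact p = 0.0333, adjusted 0.0964; rho 0.76, p = 0.0183, adjusted 0.0549; r 0.42 without untreated 5). Lrg1 had r of 0.45 to 0.58 with the 3 chains (exact p = 0.220 to 0.262, adjusted 0.328; rho 0.09 to 0.13, p = 0.748 to 0.817), which rests on untreated 5, since r was -0.15, -0.26 and -0.40 with Fga, Fgb and Fgg without it. The part of the beta cell marker level in these correlations was not tested.

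**Figure D5:**
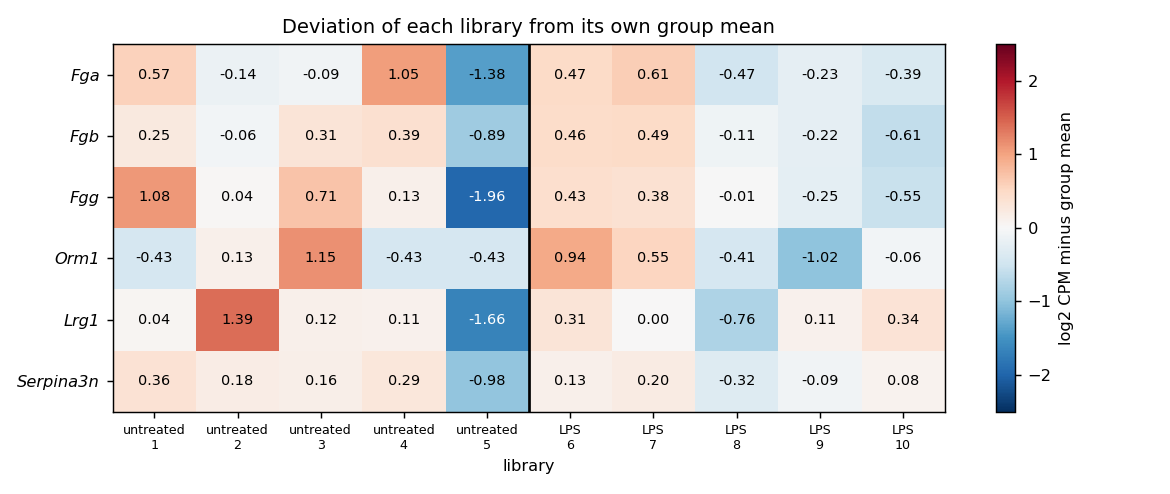
Log2 CPM of the 6 tested genes in each library minus the mean of its own group. Untreated 5 is 0.89 to 1.96 below its group for the fibrinogen chains and 1.66 below for Lrg1, and LPS 6 and 7 are above their group for all 3 chains.

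The genes whose group-centred pattern was most like that of each member over the 10 libraries, among 12065 other tested genes with a mean of at least 1 CPM (12066 for Orm1), are given as a description only. For Fgg these were Gabbr2 (r 0.98), which encodes a GABA-B receptor subunit, and Txndc16 (0.97), for Fga Atp8a2 (0.96) and Slc10a7 (0.96), and for Fgb Xpo4 (0.97) and Pign (0.97). For Lrg1 they were Lrrc57 (0.97) and Atg4c (0.95), for Orm1 Srl (0.91), and for Serpina3n Khdrbs3 (0.97) and Lgals9 (0.95). No member was among the 2 closest genes of another member. All points share libraries, and the best matches out of so many candidates are high by selection.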

How the data were processed

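The deposited files hold raw counts of reads per Ensembl gene, 1 file per library. Per the submitters' processing notes, FastQC, Trimmomatic, STAR, SAMtools, HTSeq and DESeq2 were used with build GRCm39; the sources used here give no versions, strand setting or annotation. Rows that name no gene held 15.4% to 20.2% of each file's reads and were left out. Groups and library numbers came from the sample titles. Symbols were matched for 52073 of the 56748 identifiers.

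Genes were filtered with filterByExpr (minimum count 10, minimum total 15), scaled by TMM and tested with edgeR 4.0.16 (quasi-likelihood, R 4.3.3), untreated against LPS, with Benjamini-Hochberg adjustment over 15942 genes; the code was tested on simulated data. The SE is the log2 fold change divided by the square root of F. Alternatives used DESeq2 1.42.0, limma-voom 3.58.1, other scaling, filters, covariates and left-out libraries. Group-centred log2 CPM (prior count 2) gave the correlations, with exact permutation within groups. For 3 counts over a group the level is 0.0246 CPM in untreated and 0.0268 CPM in LPS libraries; intervals cover counting error only.

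The 9 genes and all lists were chosen with earlier results of these data known. Genes named from the other lists are the up to 4 called genes with the smallest adjusted p, and exceptions are marked. The relations with marker lists, chain ratios, motifs and the beta cell covariate were added after the data were seen. Promoters are RefSeq GRCm38.p6 and exon lengths GENCODE M21; coordinates are not those of the counted build. A few items that the rules for named genes and motifs would give are not reported here.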

Additional observations from a re-analysis of the deposited data

Results flagged for a closer look

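In 3 of 18 checks of a gene within a group of 5 libraries, 1 library lay far from the other 4. Chance gives about 5% of checks only for continuous, normally spread values, which counts near 0 are not. Serpina3n in untreated 5 was at 17.0 CPM and the next library at 37.6 CPM. Orm1 in untreated 3 was at 0.169 CPM, from 4 counts, and the next library at 0.0405 CPM. Hp in untreated 5 was at 0.0410 CPM, from 1 count, with no count in the other untreated libraries. The values of Orm1 and Hp are at the level of single reads, so no excess of flags is read from these checks.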

How the results depend on the processing

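No paired analysis was possible because the labels number the libraries 1 to 5 and 6 to 10, with no number shared between groups. With single libraries left out, the genes called higher numbered 324 to 458 and lower 75 to 166, the members called 6 in each fit, other positive genes 10 to 12, negative genes called lower 0 to 1 (1 without LPS 8), regulators 8 to 11 and coagulation genes 1 to 2. DESeq2 called 322 genes lower. The members called were 6 with DESeq2 (4.1% of all genes tested called higher) and limma-voom (2.77%), 8 without a filter on low counts (1.5%, Orm2 and Saa3 added) and 5 with a CPM filter, which drops Orm1.

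With the macrophage marker mean as covariate, 264 genes were called higher and 57 lower, 7 regulators and 1 coagulation gene; with the endothelial marker mean 163, 11, 5 and 0. With the beta cell marker mean, chosen after seeing the data, 766 genes were called higher and 652 lower, 1 member, 4 other positive genes, 1 negative gene lower, 4 regulators and 0 coagulation genes. In that fit the log2 fold changes of Fgb (-0.17), Fgg (-0.095), Cd14 (-0.056), Lif (-0.26) and Cntfr (0.24) reversed; the covariate and LPS cannot be told apart. For the other changes the cause was not tested. Without untreated 5 the correlations of Lrg1 with Fga (-0.15), Fgb (-0.26) and Fgg (-0.40) reversed. Calls of Il1rn, Cebpa, Cebpb, Fetub, Cntfr and Cd14 were lost in 6 or more of 10 fits with a library left out. Depth limits Orm2, Saa3 and Hp, which rest on 45, 84 and 4 counts.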

Other observations

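S100a9, which encodes a calcium-binding protein abundant in neutrophils and listed among their markers, had 3 counts in untreated and 72 counts in LPS libraries, too few to be tested, while Mpo, Elane, Camp, Retnlg, Csf3r, Cxcr2 and Mmp8 had none. Mmp9 of the same list had 74 counts in untreated and 18 in LPS libraries, also too few to be tested. Both were picked after their values were seen. Tat, the tyrosine aminotransferase gene of the hepatocyte list, stood at 65.1 CPM in untreated and 70.2 CPM in LPS libraries.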
